A study of Mus musculus with 12 samples.

Results

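The integrated stress response is the program by which cells under stress phosphorylate the translation factor eIF2 alpha, slow protein synthesis and at the same time translate the transcription factor Atf4. Atf4, with partners of the C/EBP family, then switches on genes for amino acid supply, for feedback on its own pathway and, under lasting stress, for cell death. The liver is known for this response to toxic injury and protein-folding load, and releases the hormone Fgf21 as one of its outputs. The 10 genes described here are Atf4 and 9 genes known as its relatives or targets, namely Atf5, Ddit3, Trib3, Asns, Psat1, Chac1, Sesn2, Ddit4 and Fgf21. They were chosen by name from the integrated stress response, with earlier results of these data known. The counts of members beside all genes are therefore a description. All 10 were present in the table of protein-coding transcripts, and they make up 10 of the 14188 genes and 12 of the 29883 transcripts measured there.

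RNA was sequenced from the livers of 12 male mice, 6 treated with PZH and 6 controls. The methods give the strain as C57BL/6J and the labels as C57BL/8, and the mice were 6 weeks old at the start. Both groups received CCl4, a solvent that injures hepatocytes and leads to fibrosis, mixed with corn oil at 10 µl/g in 2 intraperitoneal injections each week for 8 weeks. The PZH group also received Pien Tze Huang (PZH), a traditional Chinese medicine, into the stomach each day at 0.25 mg/g, and the control group received double distilled water. No group without CCl4 is analysed here, so the control values are those of injured liver and not of healthy liver, and an effect of PZH on these genes cannot be told apart from a lesser injury in the treated mice. The level of a gene is given as FPKM, the sequenced fragments of a transcript relative to its length and to the size of the library, summed over the listed transcripts of the gene. As length is divided out, levels of different genes can be compared. The number of fragments behind each value was not recovered, and the spread between mice is the error given throughout.

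Targets of Atf4 share a composite DNA element, one part bound by Atf4 and the other by C/EBP factors, with the core TGATGNAA on one strand and TTNCATCA on the other. The RefSeq promoters of the members (GRCm38.p6, 250 bases before to 50 after the start) were searched for this core on both strands. The genes were chosen by name as known relatives or targets of Atf4, a status that may itself rest on this element. The count beside all genes is thus a description and no independent support. The core was present in 4 of the 10 genes, Trib3, Asns, Chac1 and Fgf21, beside 4.51% of all 27025 genes with a promoter in RefSeq. The lines below show these sites, on the strand of the gene from 5′ to 3′ with 10 bases on either side and the core in capitals.
Trib3, chr2:152344029-152344056, minus strand: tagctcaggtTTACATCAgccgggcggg
Asns, chr6:7693215-7693242, minus strand: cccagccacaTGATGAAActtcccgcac
Chac1, chr2:119351039-119351066, plus strand: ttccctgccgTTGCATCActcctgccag
Fgf21, chr7:45615612-45615639, minus strand: gacccccccaTTGCATCAtccgtccagg
Counted from the start of the RefSeq promoter entry, the first base of the core lay at 15 in Trib3, at -23 in Asns, at -193 in Chac1 and at -139 in Fgf21. GENCODE M21 starts Trib3 at 152344032 and Asns at 7693254. From these starts the Trib3 core lies before the gene and the Asns core within it. Trib3, Chac1 and Fgf21 held the core in its TTNCATCA orientation and Asns in the other. The ER stress element, the motif of the parallel Atf6 arm, was present in none of the members and in 0.137% of all genes. A match is a run of letters in this window and is not evidence of binding, which was not measured.

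All 10 genes were lower in the livers of the PZH group than in those of the control group. Each passed an adjusted p of 0.05 in limma over all genes, a threshold that 32.1% of all genes passed in the same direction. The median log2 fold change of the 10 genes was -1.24, beside -0.11 for all genes. Of the 10, 8 also passed the criterion of the study (a 2-fold change and a P under 0.05), which 2.50% of all genes passed on the lower side. In 6 of the 10 genes every PZH mouse was below every control mouse, as was the case in 17.9% of all genes.

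**Figure D1:**
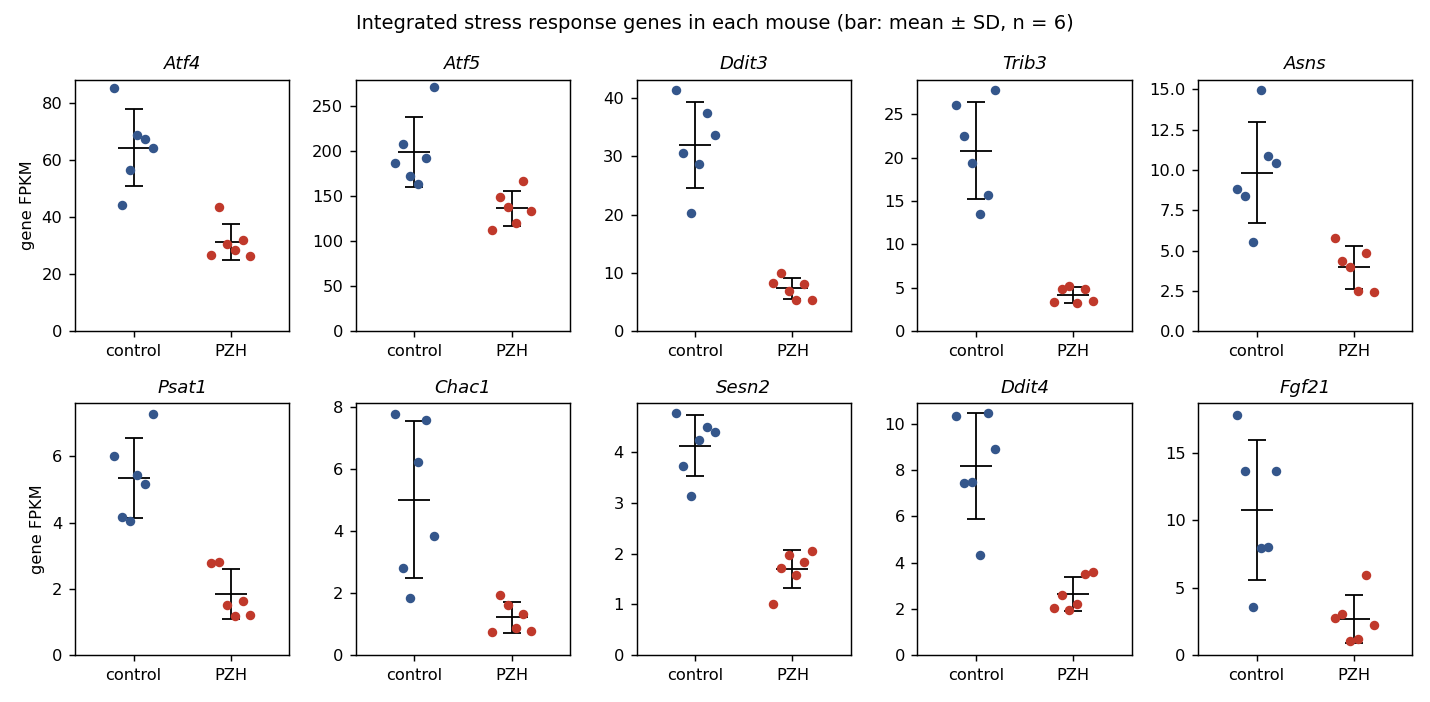
Gene FPKM (y axis, linear from 0, one scale per panel) of the 10 genes in each of the 6 control mice (blue) and 6 PZH mice (red), with the group mean ± SD in black. The groups are apart in Atf4, Ddit3, Trib3, Psat1, Sesn2 and Ddit4, and overlap in Atf5, Asns, Chac1 and Fgf21.

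The regulators of the response were the most abundant members. Atf4, the transcription factor at its centre, is encoded on chromosome 15 (80255184-80257541, GRCm38). Its level ran from 26.4 FPKM to 43.5 FPKM in the PZH mice (median 29.6) and from 44.3 FPKM to 85.2 FPKM in the control mice (median 65.8). The groups did not overlap, but they nearly touched, with PZH 2 as the highest mouse of its group and Control 2 as the lowest of the other. Its mean was 31.4 ± 6.34 FPKM (SD, n = 6) with PZH and 64.4 ± 13.6 FPKM (SD, n = 6) without, which is -1.01 ± 0.15 as a log2 fold change (with SE, limma, adjusted p = 0.00021). Atf4 is controlled to a large part at translation, and its protein was not measured in these data.

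Ddit3, which encodes the pro-apoptotic factor CHOP, and Trib3, a pseudokinase that binds Atf4 and restrains it, fell the furthest. Ddit3 ran from 5.28 FPKM to 9.98 FPKM in the PZH mice (median 7.51) and from 20.3 FPKM to 41.3 FPKM in the control mice (median 32.1). Trib3 ran from 3.23 FPKM to 5.19 FPKM in the PZH mice (median 4.14) and from 13.5 FPKM to 27.7 FPKM in the control mice (median 20.9). In both genes the lowest control mouse was more than 2-fold above the highest PZH mouse, 2.03-fold for Ddit3 and 2.60-fold for Trib3. The log2 fold change was -1.98 ± 0.18 (SE, adjusted p = 1.3e-05 in limma) for Ddit3 and -2.06 ± 0.17 (SE, adjusted p = 9.4e-06 in limma) for Trib3. Among the 14188 genes, ordered by log2 fold change from the largest fall, Trib3 stood at place 29 and Ddit3 at place 36.

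Atf5, a bZIP factor related to Atf4 that is translated under the same control and is linked to the mitochondrial stress response, changed the least. Its level ran from 112.0 FPKM to 166.5 FPKM in the PZH mice (median 135.8) and from 163.5 FPKM to 271.7 FPKM in the control mice (median 190.1). The groups overlapped by a narrow margin, between PZH 5 as the highest and Control 4 as the lowest. The log2 fold change was -0.54 ± 0.13 (SE, adjusted p = 0.0041 in limma). Atf5 overlaps Nup62 and Il4i1 on the opposite strand, and Ddit3 overlaps Mars there and a second annotated gene of its own name on the same strand. Psat1 overlaps the pseudogene Gm3329 and Sesn2 the noncoding Gm12981, so reads of these loci may be shared. The libraries were strand-specific, but whether the strand was used in the quantification is not given in the sources used here.

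The enzymes of amino acid synthesis were Asns, which makes asparagine, and Psat1, which catalyses the transamination step of serine synthesis. Asns ran from 2.41 FPKM to 5.80 FPKM in the PZH mice (median 4.14) and from 5.55 FPKM to 15.0 FPKM in the control mice (median 9.61). Its groups overlapped only through PZH 1 and Control 3, and its log2 fold change was -1.12 ± 0.22 (SE, adjusted p = 0.0011 in limma). Psat1 ran from 1.16 FPKM to 2.81 FPKM in the PZH mice (median 1.56) and from 4.04 FPKM to 7.29 FPKM in the control mice (median 5.30). All its PZH mice were below all control mice, with PZH 1 and PZH 2 above the other 4, and the log2 fold change was -1.18 ± 0.17 (SE, adjusted p = 0.00017 in limma).

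The stress effectors were Chac1, which degrades glutathione, and Sesn2 and Ddit4, which both restrain the growth kinase complex mTORC1. Chac1 ran from 0.737 FPKM to 1.94 FPKM in the PZH mice (median 1.09) and from 1.84 FPKM to 7.76 FPKM in the control mice (median 5.04). Its control mice were widely spread (coefficient of variation 50.4%), and only Control 3, the lowest of them, lay within reach of the PZH mice. The log2 fold change of Chac1 was -1.35 ± 0.27 (SE, adjusted p = 0.0014 in limma). Sesn2 was the tightest of the 3 in the control group, with 3.14 FPKM to 4.78 FPKM (median 4.33) against 0.999 FPKM to 2.05 FPKM (median 1.77) in the PZH group. Ddit4 ran from 4.34 FPKM to 10.5 FPKM in the control group (median 8.21) and from 1.94 FPKM to 3.59 FPKM in the PZH group (median 2.40). Neither gene overlapped between the groups, and their log2 fold changes were -0.94 ± 0.11 (SE, adjusted p = 4.8e-05 in limma) and -1.31 ± 0.18 (SE, adjusted p = 0.00014 in limma). Values this near to 1 FPKM are compressed by the log2(FPKM + 1) scale. On the linear scale the control mean was 4.15-fold that of the PZH group for Chac1, 2.44-fold for Sesn2 and 3.10-fold for Ddit4.

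Fgf21, the secreted hormone of the group, had the widest spread among the PZH mice of all members. It ran from 1.01 FPKM to 5.92 FPKM in the PZH mice (median 2.51) and from 3.58 FPKM to 17.8 FPKM in the control mice (median 10.8). The overlap came from PZH 5, the highest of its group, and Control 3, the lowest of the other. The coefficient of variation was 66.1% with PZH and 48.1% without it, and the log2 fold change of -1.66 had the largest error of the 10 (SE 0.36, adjusted p = 0.0023 in limma). As single values, 6 of the genes gave the smallest p that the labellings of 12 mice allow (p = 0.0022, two-sided exact permutation test). This p is reached only where the groups do not overlap, so it restates the separation of these genes. Such separation was seen on the lower side in 17.9% of all genes. Atf5, Asns, Chac1 and Fgf21 gave p = 0.0043 in the exact test.

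**Figure D2:**
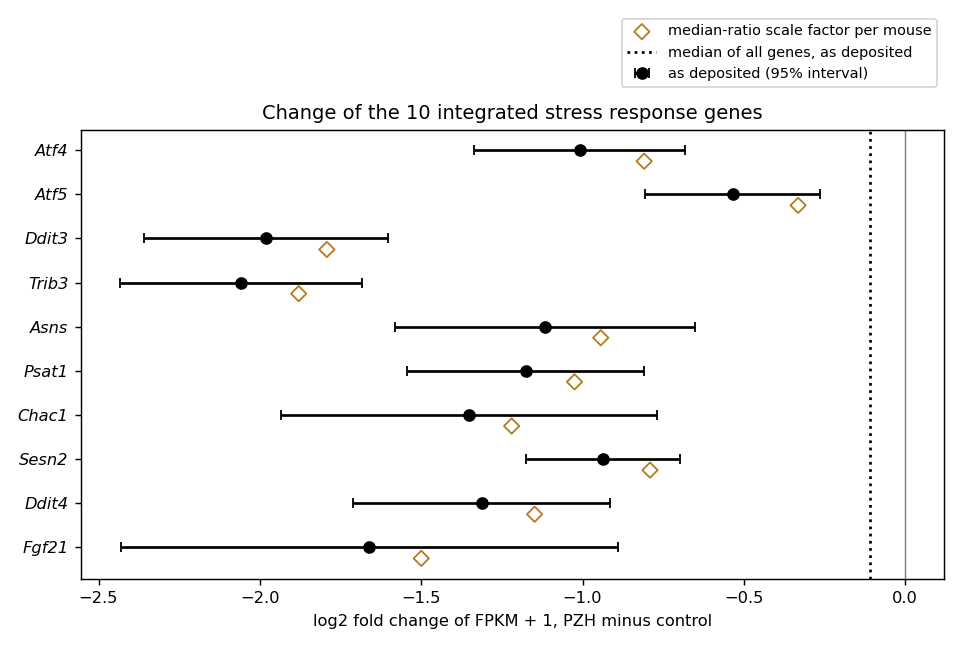
Log2 fold change of FPKM + 1 (x axis, PZH minus control, n = 6 mice per group) of the 10 genes, with the 95% interval from limma (filled points) and the value after median-ratio scaling of each mouse (open diamonds). All intervals lie below 0 and below the median of all genes (dotted line, -0.11), with Trib3 and Ddit3 furthest to the left and Atf5 nearest to 0.

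The general level of the table bears on these values. The median log2 fold change of all genes was -0.11 as deposited and 0.01 after median-ratio scaling, which divides each mouse by the median ratio of its genes to their mean over the mice. The factor lay between 0.883 and 0.995 in the PZH mice and between 1.04 and 1.11 in the control mice. Of all genes 4560 were lower and 1798 higher as deposited, and 2643 were lower and 2919 higher after this scaling. The 10 members all stayed lower at the adjusted threshold under it (beside 18.6% of all genes), with a median log2 fold change of -1.09. After scaling 6 passed the 2-fold criterion (beside 1.44% of all genes on the lower side), 5 did not overlap between the groups (beside 9.89% of all genes), and Atf4 itself, with a log2 fold change of -0.81, joined those that overlapped. A ratio of 2 genes within a mouse does not depend on such scaling.

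The ratio of each of the other 9 genes to Atf4 in the same mouse was therefore compared between the groups, on the log2 scale with a two-sided exact permutation test and adjustment over the 9 ratios. This comparison was chosen after the values were seen. Ddit3 fell further than Atf4, with a log2 ratio to it of -2.11 ± 0.26 with PZH against -1.02 ± 0.33 without it (mean ± SD, n = 6 each) (adjusted exact p = 0.0097). Trib3 did so as well, with -2.92 ± 0.24 with PZH against -1.65 ± 0.52 without it (mean ± SD, n = 6 each) (adjusted exact p = 0.0097). Neither ratio overlapped between the groups. The ratios of the other 7 did not pass the adjusted threshold. For Chac1 the difference was -0.93 (adjusted exact p = 0.052), for Fgf21 -1.05 (adjusted exact p = 0.086) and for Asns -0.28 (adjusted exact p = 0.32), while the ratio of Atf5 to Atf4 differed the other way by 0.49 (adjusted exact p = 0.070).

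In order of level, the control group had Atf5 (mean 199.4 FPKM), Atf4 (64.4), Ddit3 (32.0), Trib3 (20.8), Fgf21 (10.8), Asns (9.83), Ddit4 (8.17), Psat1 (5.35), Chac1 (5.01) and Sesn2 (4.13). Only the first 2 steps, from Atf5 to Atf4 and from Atf4 to Ddit3, separated all mice of the group. From Ddit3 downward the ranges of neighbours overlapped, although Ddit3 was above Trib3, and Trib3 above Fgf21, within each of the 6 mice. In the PZH group the first 4 genes kept this order, with means of 136.5, 31.4, 7.33 and 4.15 FPKM, and their ranges did not overlap from one to the next. Below them came Asns, Fgf21, Ddit4, Psat1, Sesn2 and Chac1, from 3.97 FPKM down to 1.21 FPKM, and no 2 neighbours among these were apart.

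The mice did not share 1 order across the genes. Control 3 was the lowest control mouse for 6 of the 10 genes (Ddit3, Asns, Psat1, Chac1, Sesn2 and Fgf21), and Control 1 was the highest for 5. PZH 2 was the highest PZH mouse for 4, Atf4, Ddit3, Psat1 and Chac1. Over the whole profile of transcripts, Control 2, Control 3 and PZH 2 correlated best with the mice of the other group (mean r of 0.923, 0.917 and 0.917). Without these 3 mice all 10 members were again lower at the adjusted threshold, beside 30.8% of all genes. Of the 10, 9 passed the 2-fold criterion, beside 3.80% of all genes on the lower side, and 9 did not overlap between the groups, beside 26.9%. As the 3 mice were picked for their nearness to the other group, leaving them out favours wider differences. These counts are therefore no separate support.

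**Figure D3:**
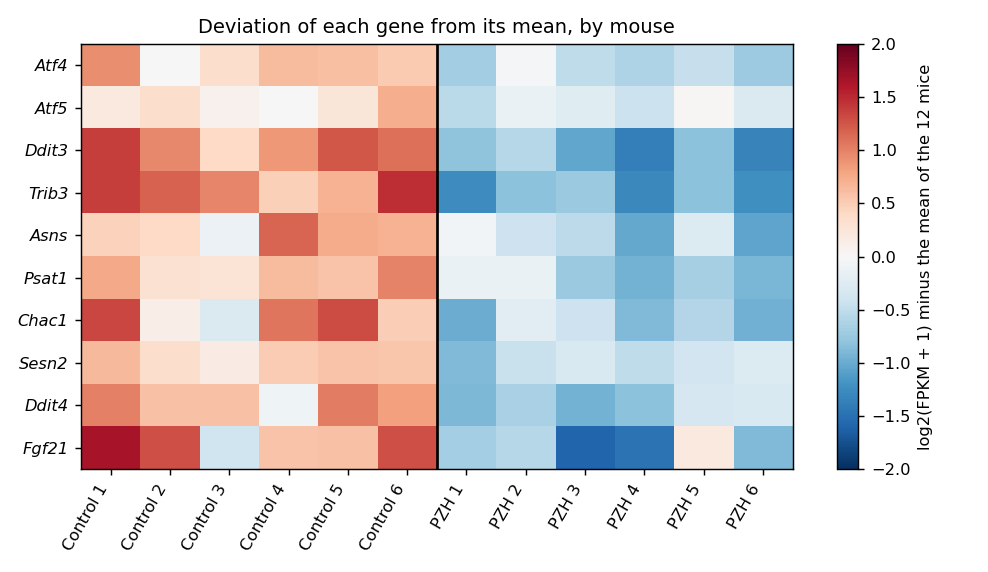
Deviation of log2(FPKM + 1) from the mean of the 12 mice for the 10 genes (rows) in each mouse (columns, control left and PZH right of the black line), with red for above and blue for below the mean. Control mice are red in nearly every gene, with the palest cells most often in Control 3. Among the PZH mice PZH 2 is the palest for Atf4, Ddit3, Psat1 and Chac1.

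Within a group most pairs of members were positively correlated, but 6 mice were too few for a single pair to pass the adjustment. Over the 6 mice of a group, 45 pairs of members were compared by Pearson and Spearman correlation with exact permutation p over 720 orders. The correlation was positive in 39 pairs among control mice (median r = 0.48) and in 36 among PZH mice (median r = 0.39). None of the 90 passed after adjustment (smallest adjusted exact p = 0.29 for Pearson and 0.25 for Spearman), and 7 by Pearson and 5 by Spearman had an unadjusted exact p under 0.05. The adjusted test could not decide on single pairs, as even a rho of 1.0 had an adjusted exact p of 0.25 (Ddit3 and Psat1 with PZH, exact p = 0.0028). The highest r was 0.93 among control mice (Ddit3 and Sesn2) and 0.92 among PZH mice (Trib3 and Chac1). The pair of Atf4 and Chac1 had r = 0.89 (rho = 0.89, exact p = 0.0097, n = 6) in the PZH group and r = 0.78 (exact p = 0.056, n = 6) in the control group before adjustment. Without the 2 mice farthest from the median of Atf4 these values were 0.87 and 0.96.

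The genes whose deviations from their group means most resembled those of Atf4 over the 12 mice, among the 10948 genes with a mean FPKM of at least 1, were no members. They were Serinc5 (r = 0.96), Maea (r = 0.94), Mapre1 (r = 0.93), Krt8 (r = 0.93) and Slc25a30 (r = 0.91). All points share a library with each other, and these values are a description. Chac1, at place 157 (r = 0.78), was the member nearest to Atf4, followed by Ddit3 at place 1000, and Atf5 stood at place 5425.

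At the level of transcripts, 11 of the 12 listed for the members passed an adjusted p of 0.05 as lower in the PZH group, beside 14.0% of all transcripts. The exception was the minor transcript of Atf5 (ENSMUST00000107893), with 4.76 ± 3.70 FPKM with PZH against 3.64 ± 3.04 FPKM without it (mean ± SD, n = 6 each) (adjusted p = 0.73 in limma). Ddit3 also had 2 transcripts. The minor one (ENSMUST00000139091), which is annotated with 3 exons in place of 4 and is incomplete at its 3′ end, ran from 1.04 FPKM to 2.91 FPKM in the control mice and was listed at 0 in 3 of the 6 PZH mice. The main transcript (ENSMUST00000026475) held 98.1% ± 2.21 of the Ddit3 level with PZH against 94.2% ± 0.95 without it (mean ± SD, n = 6 each) (adjusted exact p = 0.013). In the PZH mice the minor transcript was near the floor, at no more than 0.351 FPKM. How far missed detection at this level adds to the difference in share was not tested. For Atf5 the share of the main transcript did not differ beyond the spread between mice, at 96.4% ± 2.96 and 98.2% ± 1.47 (SD, n = 6, exact p = 0.23).

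Upstream of Atf4 stand 4 kinases that phosphorylate eIF2 alpha, each answering to another stress. Of these 3 fell and 1 did not pass the test, beside 32.1% of all genes lower at the adjusted threshold. Eif2ak3 (PERK), the kinase of the endoplasmic reticulum (ER), ran from 4.60 FPKM to 7.05 FPKM in the PZH mice (median 5.88) and from 10.6 FPKM to 15.7 FPKM in the control mice (median 12.6), without overlap and with a log2 fold change of -1.01 (adjusted p = 3.7e-05 in limma). Eif2ak2 (PKR), which senses double-stranded RNA, fell by 0.68 on the log2 scale (adjusted p = 0.0014 in limma), and Eif2ak4 (GCN2), which senses uncharged tRNA, by 0.38 (adjusted p = 0.0030 in limma). Eif2ak1 (HRI), the heme-regulated kinase, had 10.7 ± 0.94 FPKM with PZH against 9.97 ± 0.53 FPKM without it (mean ± SD, n = 6 each) (adjusted p = 0.29 in limma). It passed the test as higher after median-ratio scaling, with a log2 fold change of 0.28 (adjusted p = 0.0019 in limma), and the call of Eif2ak4 was lost with the most abundant transcript in place of the sum (adjusted p = 0.095). These are mRNA levels, and the activity of the kinases was not measured.

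Of the 2 subunits that direct the phosphatase to eIF2 alpha, Ppp1r15a (GADD34), itself induced in the response, fell by 0.81 on the log2 scale (adjusted p = 0.0014 in limma). The constitutive Ppp1r15b had 24.9 ± 3.36 FPKM with PZH against 21.5 ± 1.64 FPKM without it (mean ± SD, n = 6 each) (adjusted p = 0.10 in limma), and passed as higher after median-ratio scaling with a log2 fold change of 0.39. All 8 genes for subunits of eIF2 and of its exchange factor eIF2B fell, none of them 2-fold, with a median log2 fold change of -0.55. Of all genes 32.1% were lower at the adjusted threshold. Eif2b4 fell by 0.76, Eif2b2 by 0.67 and Eif2b5 by 0.54 on the log2 scale. After median-ratio scaling 5 of the 8 passed as lower, beside 18.6% of all genes.

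Of 9 bZIP factors that pair with Atf4, 6 fell, 1 rose and 2 did not pass, beside 32.1% of all genes lower and 12.7% higher at this threshold. Atf3, a stress-induced repressor and activator downstream of Atf4, fell from 24.1 ± 6.76 FPKM (SD, n = 6) in the control group to 5.11 ± 1.20 FPKM (SD, n = 6) in the PZH group (log2 fold change -2.01, adjusted p = 2.0e-05 in limma). Cebpb and Cebpg, partners on the composite element, fell by 1.20 and 0.89 on the log2 scale. Cebpa, the C/EBP factor of mature hepatocytes, rose from 41.3 ± 6.86 FPKM (SD, n = 6) to 60.5 ± 6.61 FPKM (SD, n = 6) (log2 fold change 0.55, adjusted p = 0.0014 in limma). The groups did not overlap in any of these 4 genes, and of all genes 17.9% were lower and 6.46% higher without overlap.

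Besides the members, 42 further genes known as targets of Atf4 were counted in 4 lists, which were also chosen with earlier results known. Of these 31 fell, 2 rose and 9 did not pass the test, with a median log2 fold change of -0.59. Of all genes 32.1% were lower and 12.7% higher at this threshold. After median-ratio scaling 26 of the 42 were lower and 3 higher with a median of -0.44, beside 18.6% of all genes lower. The amino acid transporters had 7 of 8 lower, among them Slc7a11, the cystine carrier that feeds glutathione synthesis (log2 fold change -2.26, adjusted p = 3.9e-05 in limma), its partner chain Slc3a2 (-1.59, adjusted p = 1.2e-05 in limma) and the arginine and lysine carrier Slc7a1 (-0.72, adjusted p = 4.9e-05 in limma). Slc7a11 ran from 0.879 FPKM to 4.77 FPKM in the PZH mice and from 8.80 FPKM to 22.7 FPKM in the control mice. Slc7a1 was near 1 FPKM (mean 0.662 with PZH and 1.76 without it), so its fall is compressed on the log2(FPKM + 1) scale. Of the 13 genes for tRNA synthetases and tRNA export 12 fell, led by the synthetases for serine (Sars, -1.19), tryptophan (Wars, -1.13) and cysteine (Cars, -1.16), and 1, Eprs, did not pass.

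Genes for amino acid synthesis were divided. Of 9, 5 fell, 2 rose and 2 did not pass (beside 32.1% of all genes lower and 12.7% higher), with a median log2 fold change of -0.29. After median-ratio scaling 3 were lower and 3 higher with a median of -0.08, as Phgdh and Gpt2 lost their calls and Pycr1 passed as higher (adjusted p = 0.10, 0.54 and 0.032 in limma). Mthfd2 and Aldh18a1, enzymes of mitochondrial folate metabolism and of proline synthesis, fell by 1.22 and 1.11 on the log2 scale, and Psph, which completes serine synthesis, by 0.65. Cth, which makes cysteine from cystathionine, rose from 60.9 ± 13.7 FPKM (SD, n = 6) to 178 ± 65.3 FPKM (SD, n = 6) (log2 fold change 1.47, adjusted p = 0.00044 in limma), and Shmt2, the mitochondrial serine hydroxymethyltransferase, rose by 0.74 (adjusted p = 0.0010 in limma). Both rises were seen although the lowest PZH mouse overlapped the control mice. Of the 12 stress effectors and secreted factors 7 fell and 5 did not pass. Nupr1, a stress-induced chromatin protein, fell by 2.22 on the log2 scale, Eif4ebp1, a repressor of cap-dependent translation, by 1.06, and the death receptor Tnfrsf10b by 0.52. Tnfrsf10b was near 1 FPKM (mean 0.693 with PZH and 1.43 without it), where the log2(FPKM + 1) scale compresses the fall. The hormone Gdf15, often induced together with Fgf21, had 2.85 ± 1.17 FPKM with PZH against 4.91 ± 3.56 FPKM without it (mean ± SD, n = 6 each) and did not pass the test (adjusted p = 0.29 in limma).

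**Figure D4:**
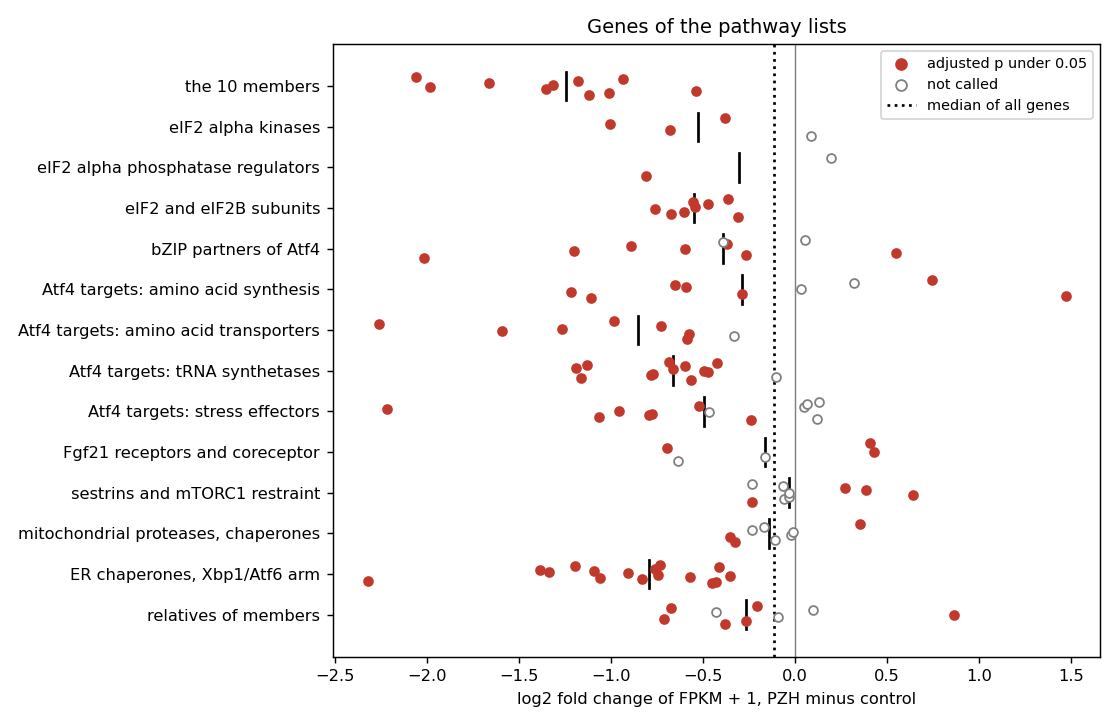
Log2 fold change of FPKM + 1 (x axis, PZH minus control, n = 6 mice per group) of each gene of the pathway lists (rows), filled where the adjusted p was under 0.05 and open where it was not, with the median of the list as a black bar and that of all genes as a dotted line. The members, the amino acid transporters and the ER chaperones lie furthest to the left, and Cth (1.47) is the point furthest to the right.

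Relatives of the members moved differently from them in part. Chac2, the constitutive enzyme that degrades glutathione like Chac1, rose from 6.63 ± 1.38 FPKM (SD, n = 6) to 12.9 ± 2.28 FPKM (SD, n = 6) without overlap (log2 fold change 0.87, adjusted p = 0.00019 in limma). The ratio of Chac1 to Chac2 ran from 0.268 to 1.56 in the control mice and from 0.042 to 0.171 in the PZH mice. Trib1 fell like Trib3 but less far, by 0.67 on the log2 scale, and Atf6b and Atf2 by 0.71 and 0.26, where the call of Atf2 was lost after median-ratio scaling (adjusted p = 0.34). Of the 9 relatives listed, 5 fell, 1 rose and 3 did not pass, beside 32.1% of all genes lower and 12.7% higher. After median-ratio scaling 2 were lower (beside 18.6% of all genes) and 1 higher, as Atf1 and Trib2 also lost their calls (adjusted p = 0.10 and 0.31).

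The other sestrins did not fall with Sesn2. Sesn1 rose by 0.39 (adjusted p = 0.014 in limma) and Sesn3 by 0.28 (adjusted p = 0.049 in limma), so that the ratio of Sesn2 to Sesn1 ran from 0.563 to 1.14 in the control mice and from 0.134 to 0.324 in the PZH mice. The rise of Sesn3 was lost when any of 8 of the 12 mice was left out (adjusted p up to 0.10), and that of Sesn1 shrank to 0.18 with its most abundant transcript alone (adjusted p = 0.49). Deptor, an inhibitor of the mTOR kinase, rose by 0.64 without overlap (adjusted p = 0.00052 in limma), and Castor1, an arginine sensor, was lower by a log2 fold change of -0.23 (adjusted p = 0.048 in limma), a call lost when any of 9 mice was left out and after scaling. Of the 9 genes of this list 1 fell, 3 rose and 5 did not pass, beside 32.1% of all genes lower and 12.7% higher.

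Of 5 genes for FGF receptors and the coreceptor of Fgf21, 2 rose, 1 fell and 2 did not pass. Of all genes 32.1% were lower and 12.7% higher. Klb, the coreceptor, and Fgfr3 rose by 0.41 and 0.43 on the log2 scale (adjusted p = 0.017 and 0.026 in limma). Fgfr4, the main receptor of hepatocytes, fell by 0.69 (adjusted p = 0.00083 in limma). The call of Fgfr3 was lost without PZH 5 or without Control 4 (adjusted p = 0.052 and 0.058). Of the 8 mitochondrial chaperones and proteases linked to Atf5, 2 fell, 1 rose and 5 did not pass the test, near the shares of all genes. The chaperone Hspa9 and the protease subunit Clpp fell by 0.35 and 0.33 on the log2 scale, calls that were lost after median-ratio scaling (adjusted p = 0.18 and 0.27), and the protease Oma1, which starts the relay of mitochondrial stress to eIF2 alpha, rose by 0.35 (adjusted p = 0.0089 in limma).

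The parallel arms of the ER stress response fell as well. All 16 genes for ER chaperones and the Xbp1 and Atf6 arms were lower at the adjusted threshold (beside 32.1% of all genes). In 13 of them the groups did not overlap (beside 17.9% of all genes lower without overlap), and the median log2 fold change was -0.79. After median-ratio scaling 13 were lower at this threshold (beside 18.6% of all genes). Creld2, an ER-resident protein induced by Atf6, fell by 2.32 on the log2 scale, the co-chaperone Sdf2l1 by 1.19 and Dnajb9, a target of spliced Xbp1, by 1.06.

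Markers of cell types moved with the groups to a different extent. The FPKM of each list were summed, and such a sum is carried by its most abundant markers. For hepatocytes this was Alb (mean 38437 FPKM with PZH and 24059 FPKM without it). For macrophages it was Lyz2 (235 and 190 FPKM) and for cholangiocytes Spp1 (94.1 and 121 FPKM). At the adjusted threshold 32.1% of all genes were lower and 12.7% higher. The summed level of 8 hepatocyte markers was 41883 FPKM to 58413 FPKM in the PZH mice and 23914 FPKM to 37755 FPKM in the control mice, without overlap, with 4 markers higher (Alb, Ttr, Cps1 and Asgr1), 1 lower (Hnf4a) and 3 not called. After median-ratio scaling 6 hepatocyte markers were higher, with Apoa1 and Tat added, and none was lower, as Hnf4a lost its call (adjusted p = 0.32 in limma). No marker of any list was at 0 in all mice, and hepatocyte markers had the highest sum of all lists in every mouse, as the label of liver tissue implies. The summed levels of the other lists overlapped between the groups. These were 8 markers of stellate cells or myofibroblasts (105 FPKM to 180 FPKM with PZH and 86.0 FPKM to 151 FPKM without, 3 lower and 1 higher), 8 of macrophages or Kupffer cells (327 to 499 FPKM and 333 to 448 FPKM, 2 lower and 2 higher), 6 of neutrophils (13.4 to 140.5 FPKM and 19.1 to 64.6 FPKM, 2 lower) and 6 of endothelium (77.1 to 99.9 FPKM and 88.2 to 101 FPKM, 2 lower). The same held for 5 markers of cholangiocytes (64.8 to 130.4 FPKM and 90.3 to 148.2 FPKM, 1 lower) and 5 of lymphocytes (2.41 to 4.09 FPKM and 2.47 to 4.47 FPKM, none called). Single markers of these lists were apart between the groups although the sums were not. Without overlap, 17.9% of all genes were lower and 6.46% higher, so such separation is not particular to markers. Marco, a scavenger receptor of Kupffer cells, had 9.46 ± 6.88 FPKM with PZH against 41.9 ± 15.1 FPKM without it (mean ± SD, n = 6 each), and Lyve1, Pecam1 and Cldn4 were also lower without overlap, while Clec4f was higher. After median-ratio scaling the calls were 3 lower and 3 higher for stellate cells, 1 and 4 for macrophages, 2 and 0 for neutrophils, 1 and 1 for endothelium, 1 and 1 for cholangiocytes and 0 and 1 for lymphocytes. The part of these shifts in the results was not tested, and in bulk tissue fewer cells that express a gene and less RNA per cell cannot be told apart.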

How the data were processed

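Liver RNA of 6 PZH and 6 control mice was made by the authors into rRNA-depleted, strand-specific libraries. Per the labels and methods, reads were trimmed with Trimmomatic and mapped to GRCm38 with HISAT2, and transcripts were quantified with StringTie on an Ensembl annotation. The authors deposited FPKM per transcript and mouse, on the linear scale and relative to transcript length and library size. The table lists transcripts whose FPKM summed to at least 1 over the 12 mice. The table of lncRNA transcripts was not used.

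Of 29883 protein-coding transcripts, 29876 were assigned to 14188 genes by GENCODE M21, and their FPKM were summed. The FPKM of a mouse summed to between 325302 and 370426. Read counts were not recovered, as 1.61% to 2.22% of low values fell within 0.01 of a whole multiple of a common step, where even spacing gives 2%. Groups were compared on log2(FPKM + 1) with limma 3.58.1 in R 4.3.3, without filter or covariate, with Benjamini-Hochberg adjustment over all genes (or all transcripts). Single values, ratios and shares were tested by two-sided exact permutation over all labellings of the mice. The mice are taken as separate animals. In a simulation of independent normal values, 200 of the 14188 genes, with a mean FPKM of at least 1, were shifted by 1 on the log2(FPKM + 1) scale. Of these 91% were recovered, with 11 false calls. With 6358 genes called, the deposited data differ from this setting, so the simulation gives no error rate for them. Other steps used Python 3.11.15 (scipy 1.17.1, pandas 2.3.3).

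The members and the gene lists were chosen with earlier results of these data known. Named were all 10 members, every eIF2 alpha kinase, up to 3 genes per list and direction with the smallest adjusted p under 0.05, and the 5 genes most like Atf4. Ppp1r15b, Eprs, Gdf15, Phgdh, Gpt2, Pycr1, Atf1, Trib2 and the cell type markers that are named, and the ratios of relatives and of members to Atf4 were chosen after their values were seen. Gene positions are those of GENCODE M21 and promoters those of RefSeq, both on GRCm38. Alternatives tried were leaving out each mouse, median-ratio scaling, a pseudocount of 0.1, only genes with a mean of at least 1 FPKM, a mean-variance trend, the most abundant transcript in place of the sum, and a block on the mouse number. Leaving out 3 mice together was added after seeing the data.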

Additional observations from a re-analysis of the deposited data

How the results depend on the processing

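All 10 members kept their direction and an adjusted p under 0.05 in each of the 19 alternatives, as did 11 of their 12 transcripts in 17. Of all genes, 5597 to 6437 passed the adjusted threshold when each mouse was left out, and 5304 to 6323 under the other alternatives, beside 6358. The count of all genes past the 2-fold criterion, 570, depended more on the settings, with 1317 at a pseudocount of 0.1, 878 without Control 2, Control 3 and PZH 2, and 511 to 675 with each mouse left out. The members past it numbered 6 to 8 with each mouse left out and 6 to 9 otherwise. The larger number at the smaller pseudocount follows from less compression of low values. The 3 mice were picked as nearest to the other group, which by itself favours a rise without them, and other causes were not tested. Median-ratio scaling moved the median of all genes by more than 0.1 and took the split of calls from 4560 lower and 1798 higher to 2643 and 2919. With each mouse left out, the share of the main Ddit3 transcript differed by 3.53 to 4.55 percentage points and that of Atf5 by -2.38 to -0.95. The ratios of Ddit3 and Trib3 to Atf4 kept their calls when any mouse was left out (differences of -1.19 to -0.999 and -1.42 to -1.14). Of the ratios that were not called, that of Chac1 passed without PZH 3, without Control 3 and without the 3 mice together (adjusted exact p = 0.039, 0.013 and 0.048), that of Psat1 without PZH 1 (adjusted exact p = 0.013), that of Ddit4 without Control 4 (adjusted exact p = 0.039) and that of Fgf21 without Control 3 (adjusted exact p = 0.049). Of the other Atf4 targets 29 to 34 were called in the alternatives, in either direction. Mice with the same number in both groups did not deviate together (r of -0.08 to 0.09), and the labels give no pairing. Such values cannot exclude a pairing, as even the best partners in the control group reached only an r of 0.06 to 0.19. With the mouse number as a replicate block, 5982 genes and all 10 members passed. The spread between mice, not a known depth, limits these values, most of all for Fgf21 and Chac1.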
